A study of Mus musculus with 6 samples.

Results

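Ribosome biogenesis and RNA polymerase I are described here through 54 genes, all found by symbol among the 27734 genes of the deposited table. The list holds 7 genes of polymerase I and its initiation, 8 of small nucleolar ribonucleoproteins (snoRNPs), 18 of small-subunit assembly, 17 of large-subunit assembly and 4 that organise the nucleolus. It was drawn up by function with earlier results of this same comparison in view, so the values below describe these genes and their calls are no independent support for a change of the pathway. RNA came from rib chondrocytes, the matrix-secreting cells of cartilage, isolated from E18.5 mouse embryos. The 3 mutant libraries came from Jab1flox/flox; Col2a1-Cre embryos, in which Cre recombinase driven by the Col2a1 promoter removes Jab1 (gene Cops5) from Col2a1-expressing cells, and the 3 wild-type libraries from embryos labelled wild type, with no further alleles named. The comparison asks which genes change in rib chondrocytes on loss of Jab1, the catalytic COP9 signalosome subunit that removes Nedd8 from cullins.

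Ribosomes are built mainly in the nucleolus. RNA polymerase I transcribes a long precursor of the ribosomal RNAs, snoRNPs guide its methylation and pseudouridylation, and large assemblies of proteins fold and cut it while ribosomal proteins join. The small and the large subunit mature along separate routes and leave the nucleus on their own. Growing and secreting cells such as cartilage cells depend on this supply, and inherited defects of polymerase I or its partners, such as those of TCOF1 in humans, disturb the craniofacial skeleton.

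Nearly all of these genes were slightly higher in mutant chondrocytes, and few passed the test. Of the 54 genes, 8 rose and none fell at an adjusted p under 0.05 (limma on log2(FPKM + 1), adjusted over 14012 genes averaging 1 FPKM or more), and 46 did not pass. Among all genes tested 3.48% rose, 2.59% fell and 6.07% changed in either direction. FPKM is the deposited unit, a fragment count scaled to gene length and to the mapped total. The 8 were Utp20, Nop16, Ubtf, Rpf1, Dkc1, Wdr75, Wdr12 and Rrp9, with ratios of the group means from 1.32 to 1.64. No gene of the list reached a 2-fold ratio. The log2 fold change, mutant minus wild type, was above 0 for 51 genes and below 0 for 3 (Noc4l, Dimt1 and Utp14a), with a median of 0.26, while 49.4% of all genes tested were above 0, with a median of -0.0039. At an unadjusted p under 0.05, 24 genes were higher and none lower, against 12.7% of all genes tested higher and 12% lower. Every mutant library lay above every wild-type library for 30 of the 54 genes (55.6%), against 16.3% of all genes tested, and for the other 24 the groups overlapped.

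The calls changed when single libraries were left out. The number that rose was 4 without mutant column 0 and 0 without mutant column 1 or 2 or without wild-type column 0, 1 or 2, in fits with fewer libraries. Of all genes tested 2.7% rose without mutant column 0, and 0.71% to 1.31% without any other 1 library. The number was also 0 with a Y-linked covariate (1.35% of all genes tested rose), 4 when low genes were kept (1.06%), 13 with weighted libraries (5.82%) and 15 with protein-coding genes only (6.7%). The median log2 fold change stayed between 0.18 and 0.37 over these and the other settings. The directions of the 8 genes held in every setting tried. In each of the 8 every mutant library lay above every wild-type library. Most settings, such as leaving out a library or changing the pseudocount, could therefore not turn the sign. The Y-linked level nearly follows genotype (1.97 to 4.08 in mutant and 0.01 to 0.20 in wild-type libraries), so this fit cannot separate it from genotype. Its fold changes rest largely on how mutant column 0 differed from mutant columns 1 and 2. Standard errors grew, for Dkc1 from 0.0624 to 0.159 and for Utp20 from 0.0951 to 0.259. Single values moved further than the median with the Y-linked covariate. Of the 25 genes given library by library below, 8 had a log2 fold change over 1.5 times larger with it, 4 one over 1.5 times smaller, 1 turned its sign (Npm1) and 12 stayed within that factor; among the 8 that rose, Nop16 moved that far, to 0.33. None of the 25 passed with it (adjusted p from 0.0855 for Tcof1).

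**Figure D1:**
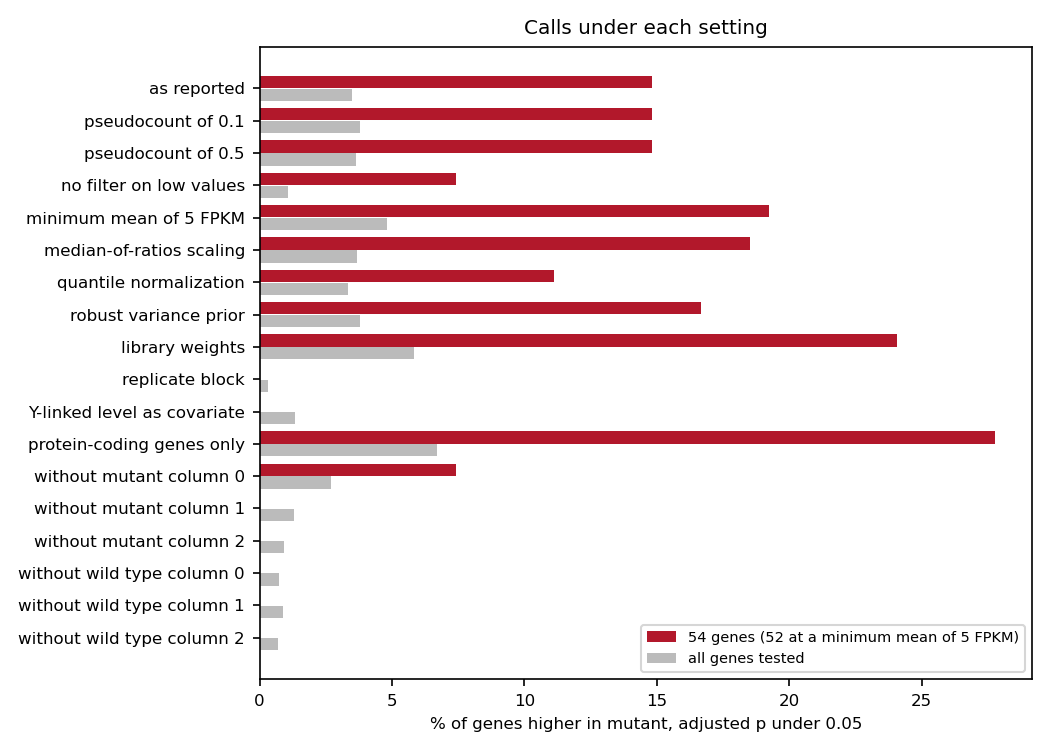
Share of genes that rose in mutant chondrocytes (horizontal axis, % with an adjusted p under 0.05 and a positive fold change) under the reported fit and each alternative, for the 54 genes (red) and for all genes tested (grey). The reported fit stands at 14.8% against 3.48%, and the red bar is at 0 in 7 of the settings, 5 of which leave out 1 library.

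The libraries differed in ways that bear on this list. Wild-type column 0, whose title carries day 30 of the month where the other dated titles carry day 24, was the lowest of the 6 libraries for 38 of the 54 genes (70.4%), against 21.2% of all genes tested. On the other side, mutant column 0 was the highest of the 6 for 19 of the 54 genes, against 24.2% of all genes tested. Against the wild-type mean, the median of the 54 log2 values was 0.31, 0.22 and 0.21 in mutant columns 0, 1 and 2, and -0.12, 0.06 and 0.05 in wild-type columns 0, 1 and 2. Without wild-type column 0, 45 of the 54 genes were above 0 and 9 below, 19 were higher at an unadjusted p under 0.05 (35.2%, against 10.3% of all genes tested), and none passed after adjustment (0.743% of all genes tested rose). Every mutant library lay above wild-type columns 1 and 2 for 30 of the genes (55.6%, against 20.2% of all genes tested). Mean log2(FPKM + 1) of 4 Y-linked genes (Ddx3y, Eif2s3y, Uty and Kdm5d) was 1.97, 4.08 and 3.89 in mutant columns 0, 1 and 2, and 0.07, 0.01 and 0.20 in wild-type columns 0, 1 and 2. The groups thus differed in Y-linked level as well as in genotype. Y-linked transcripts come from male cells, so the sex make-up of the libraries differed along with genotype, and their parts cannot be told apart. The targeted gene Cops5 had 17.0, 18.0 and 17.2 FPKM in mutant libraries, against 42.3, 39.8 and 40.1 FPKM in wild-type libraries (log2 fold change -1.18, SE 0.0599, adjusted p = 6.5e-04); this value covers the full gene model, floxed or not.

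Markers of other cells differed between the groups, in some lists through single genes. Summed FPKM of 6 erythroid markers was 13.9 to 44.9 in mutant and 175 to 200.4 in wild-type libraries, and all 4 tested fell. The 6 neutrophil markers summed to 0.891 to 7.01 FPKM in mutant and 65.2 to 191 in wild-type libraries, 2 of 3 tested fell, and Elane was at 0 in mutant columns 1 and 2, Mpo in mutant column 1, Ngp in mutant column 2 and the erythroid Slc4a1 in mutant column 0. Skeletal muscle markers summed to 53.9 to 81.4 FPKM in mutant and 150.4 to 175 in wild-type libraries, with 1 of 6 tested lower, Tnnt3. That gene made up most of the gap: the other 8 markers summed to 13.1, 17.9 and 3.67 FPKM in mutant libraries and 13.3, 13.2 and 32.0 FPKM in wild-type libraries, so that the groups overlapped. Of 10 tested chondrocyte markers 2 fell (Comp and Matn3), 8 were below 0 on the log2 scale (median -0.47), and 4 were lower and 0 higher at an unadjusted p under 0.05. They summed to 11984, 7700 and 7398 FPKM in mutant columns 0, 1 and 2, against 11427, 12723 and 10897 FPKM in wild-type columns 0, 1 and 2, so that mutant column 0 alone lay within the wild-type range. Of 5 tested fibroblast and tendon markers 1 fell, Dcn. Over 7 such markers the sums were 609 to 861 FPKM in mutant and 968 to 1064 FPKM in wild-type libraries. The lower sum came from Dcn and Fmod (log2 fold changes -0.56 and -0.94), while Tnmd, Postn and Scx were above 0 (1.58, 0.80 and 0.33) without passing, and the median was 0.33. None of 6 tested macrophage and osteoclast markers or 5 osteoblast markers passed in limma. Over 7 macrophage and osteoclast markers the sums were 82.2 to 289 FPKM in mutant and 87.9 to 139.6 FPKM in wild-type libraries. At an unadjusted p under 0.05, 2 of them were lower, Lyz2 and Ptprc (log2 fold changes -1.96 and -1.05), and 0 higher. By sign 3 tested ones were above 0, Ctsk, Acp5 and Cd68 (0.84, 0.71 and 0.43), and 3 below. Osteoblast markers summed to 31.8 to 197 FPKM in mutant and 51.0 to 155 FPKM in wild-type libraries, and 0 differed at an unadjusted p under 0.05. None of 14 proliferation markers passed (at an unadjusted p under 0.05, 2 higher and 0 lower), 7 being above and 7 below 0 on the log2 scale, with sums of 498 to 596 FPKM in mutant and 438 to 599 in wild-type libraries. The part of these cell markers, of the title date and of the Y-linked level in the values of the 54 genes was not tested beyond the fits named above. In bulk RNA, fewer cells of a type and less RNA per cell cannot be told apart.

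**Figure D2:**
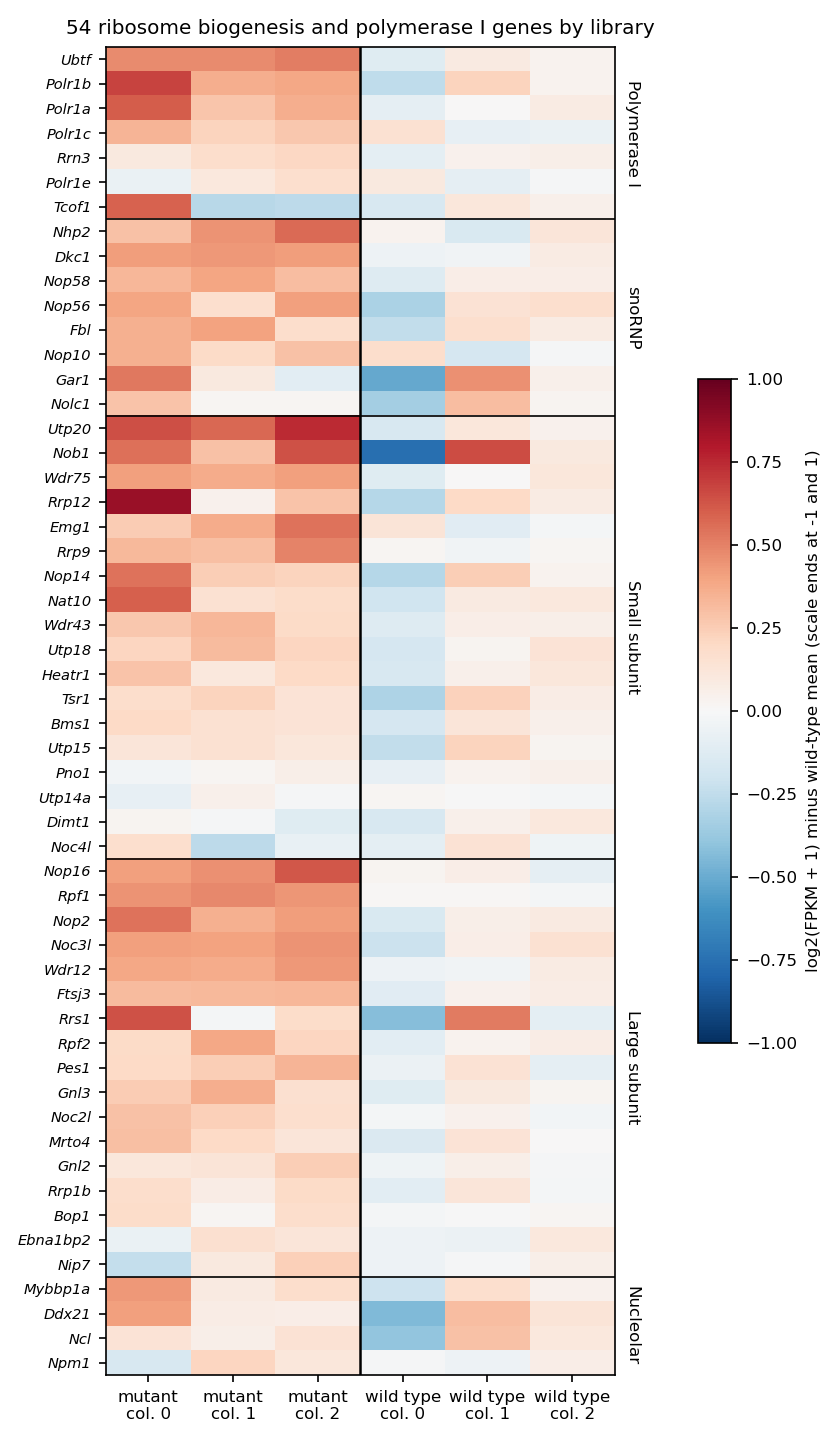
Each row is 1 of the 54 genes, grouped by role, and each column 1 library, with mutant libraries left of wild-type libraries. Colour gives log2(FPKM + 1) minus the wild-type mean of that gene. The mutant columns are mostly red, and wild-type column 0 holds the lowest value in 38 rows.

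Promoter sequence was examined as a description, without a test. CACGTG, the E-box bound by Myc and other helix-loop-helix factors and present in many promoters of ribosome biogenesis genes, was searched in RefSeq windows of 300 bases (build GRCm38.p6, 250 bases before to 50 bases from the start site, gene strand; the motif reads the same on both strands). Of the 54 genes 46 had a window, and 10 of these (21.7%) held CACGTG, namely Nop2, Rpf2, Utp20, Pes1, Pno1, Mybbp1a, Tsr1, Utp18, Rrn3 and Wdr43. Of the 8806 tested genes with a window 12.3% held it, and of 83 other ribosome biogenesis genes 15.7%. It was in 1 of the 7 genes that rose and had a window (Utp20), and in 9 of the 39 that did not pass. Rrn3 was the only gene of the list whose window held 2 copies, starting 215 and 48 bases before the start site. The copy in Utp20 begins 37 bases and that in Pes1 2 bases downstream of the start site. The windows of these 3 genes are shown with CACGTG in capitals, beside that of Dkc1, which rose and holds no copy. They lie at chr10:88826765-88827064 (minus strand, Utp20), chr11:3963725-3964024 (plus strand, Pes1), chr16:13780449-13780748 (plus strand, Rrn3) and chrX:75095604-75095903 (plus strand, Dkc1).
Utp20: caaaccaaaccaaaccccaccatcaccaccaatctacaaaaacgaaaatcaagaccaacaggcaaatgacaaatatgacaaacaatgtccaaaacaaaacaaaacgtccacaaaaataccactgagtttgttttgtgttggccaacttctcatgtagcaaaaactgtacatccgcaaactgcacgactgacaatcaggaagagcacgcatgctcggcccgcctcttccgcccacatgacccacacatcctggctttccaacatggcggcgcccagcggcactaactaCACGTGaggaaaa
Pes1: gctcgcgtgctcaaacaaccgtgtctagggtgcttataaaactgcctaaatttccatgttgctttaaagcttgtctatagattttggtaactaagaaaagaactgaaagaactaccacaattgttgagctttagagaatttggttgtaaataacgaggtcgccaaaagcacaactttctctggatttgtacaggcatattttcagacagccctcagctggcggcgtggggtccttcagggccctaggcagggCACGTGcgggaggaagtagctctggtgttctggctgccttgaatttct
Rrn3: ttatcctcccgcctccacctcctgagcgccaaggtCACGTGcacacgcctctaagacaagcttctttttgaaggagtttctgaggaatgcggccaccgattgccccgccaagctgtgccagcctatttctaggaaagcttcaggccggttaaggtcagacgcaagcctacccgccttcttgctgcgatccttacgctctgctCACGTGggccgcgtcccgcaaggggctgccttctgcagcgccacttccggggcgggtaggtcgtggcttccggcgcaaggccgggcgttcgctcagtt
Dkc1: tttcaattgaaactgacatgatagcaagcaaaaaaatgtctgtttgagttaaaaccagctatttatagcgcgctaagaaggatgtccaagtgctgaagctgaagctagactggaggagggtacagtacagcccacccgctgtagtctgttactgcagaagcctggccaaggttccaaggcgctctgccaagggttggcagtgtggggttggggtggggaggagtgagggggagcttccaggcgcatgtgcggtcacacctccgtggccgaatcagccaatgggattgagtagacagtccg
A match describes letters in this window and shows no binding, and a window without it says nothing about any factor.

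Of the 7 genes of polymerase I and its initiation 1 rose and 6 did not pass, with a median log2 fold change of 0.28. Beside this count, and those of the other roles below, 3.48% of all genes tested rose. Ubtf encodes the upstream binding factor that coats active ribosomal RNA genes and lies on chromosome 11 (102304560 to 102319742, mm10). It had 53.5, 53.5 and 55.1 FPKM in mutant columns 0, 1 and 2, against 35.0, 40.8 and 39.2 FPKM in wild-type columns 0, 1 and 2. The mutant libraries lay close together and all above the wild-type ones, which were more spread. Ubtf thus averaged 54.04 ± 0.881 FPKM in mutant and 38.3 ± 2.98 FPKM in wild-type libraries (SD, n = 3 each; log2 fold change 0.49, SE 0.0755, adjusted p = 0.0277). Leaving out any of the 6 libraries ended the call, with adjusted p from 0.0518 to 0.102 and a log2 fold change of 0.43 to 0.53.

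The catalytic subunits lay in the same direction without passing. Polr1a, the largest subunit, had 12.04, 9.40 and 10.03 FPKM in mutant libraries, against 7.06, 7.57 and 8.07 FPKM in wild-type libraries (log2 fold change 0.42, SE 0.106, adjusted p = 0.0795). Polr1b, the second largest, had 12.7, 10.1 and 10.2 FPKM in mutant libraries, against 6.20, 9.01 and 7.80 FPKM in wild-type libraries (log2 fold change 0.48, SE 0.152, adjusted p = 0.131). In both, the groups did not overlap and mutant column 0 was highest and wild-type column 0 lowest. With the Y-linked covariate their log2 fold changes were 0.86 and 0.97 (adjusted p = 0.116 and 0.225). Polr1c, a subunit shared with polymerase III, had 44.5, 41.0 and 42.3 FPKM in mutant libraries, against 39.1, 32.9 and 33.3 FPKM in wild-type libraries (adjusted p = 0.129), again without overlap (log2 fold change 0.28, and 0.43 with the Y-linked covariate). Polr1e, the subunit that helps start transcription, overlapped between groups (log2 fold change 0.07, adjusted p = 0.667).

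Rrn3 (TIF-IA), which makes polymerase I competent to initiate and is a target of growth signalling, had 31.0, 32.7 and 33.6 FPKM in mutant libraries, against 26.9, 29.7 and 30.0 FPKM in wild-type libraries. The groups were adjacent without overlap, and the log2 fold change of 0.16 (SE 0.0712) did not pass (adjusted p = 0.228) and was 0.012 with the Y-linked covariate. Tcof1, which encodes treacle, a nucleolar partner of Ubtf and polymerase I, had 12.4, 6.36 and 6.44 FPKM in mutant libraries, against 6.97, 8.64 and 8.23 FPKM in wild-type libraries. Mutant column 0 alone lay above the wild-type range and the other mutant libraries below it. The log2 fold change of Tcof1 was 0.02 (SE 0.253, adjusted p = 0.978), and over the alternatives it ranged from -0.27 without mutant column 0 to 1.37 with the Y-linked covariate (SE 0.246, adjusted p = 0.0855).

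**Figure D3:**
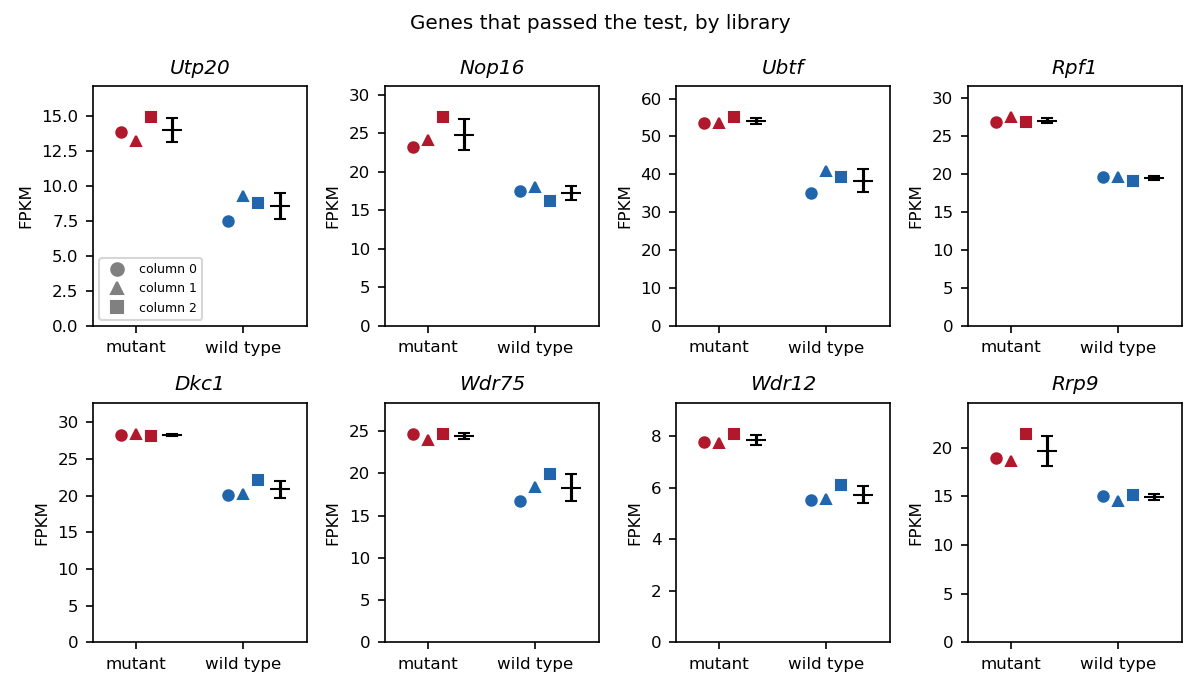
FPKM of the 8 genes that rose, with mutant libraries (red) left of wild-type libraries (blue), 1 symbol per library column and the mean ± SD (n = 3) in black beside each group. Every axis starts at 0, and in each gene all 3 mutant libraries lie above all 3 wild-type libraries.

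Of the 8 snoRNP genes 1 rose and 7 did not pass (median log2 fold change 0.32). Dkc1 encodes dyskerin, the pseudouridine synthase of H/ACA snoRNPs and also a telomerase component, and lies on the X chromosome (75095854 to 75109777, mm10). It had 28.2, 28.4 and 28.2 FPKM in mutant libraries, against 20.1, 20.3 and 22.1 FPKM in wild-type libraries. Its mutant libraries differed by less than those of any other gene that rose. The means were 28.3 ± 0.145 FPKM in mutant and 20.9 ± 1.12 FPKM in wild-type libraries (log2 fold change 0.42, SE 0.0624, adjusted p = 0.0240). With 1 library left out, the adjusted p ranged from 0.0446 to 0.0930 and passed in 1 of 6 fits. For this X-linked gene the part of sex make-up cannot be told apart from that of genotype.

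Nhp2, the RNA-binding H/ACA protein, had 38.2, 42.7 and 46.3 FPKM in mutant libraries, against 31.7, 27.8 and 33.7 FPKM in wild-type libraries, without overlap (log2 fold change 0.44, adjusted p = 0.0730). With the Y-linked covariate the log2 fold change of Nhp2 was 0.081. Nop10, the small H/ACA subunit that contacts dyskerin, and Gar1 gave log2 fold changes of 0.28 and 0.17, adjusted p = 0.176 and 0.748. The 4 core H/ACA genes differed in level, with means over all libraries of 59.8 FPKM for Nop10, 36.7 for Nhp2, 24.6 for Dkc1 and 7.49 for Gar1.

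The box C/D proteins guide ribose methylation. Nop58 had 87.8, 91.5 and 86.3 FPKM in mutant libraries, against 63.2, 72.7 and 72.5 FPKM in wild-type libraries, without overlap (log2 fold change 0.35, SE 0.0795, adjusted p = 0.0632). Its partner Nop56 had 78.2, 66.5 and 78.9 FPKM in mutant libraries, against 47.3, 65.7 and 66.8 FPKM in wild-type libraries, so that mutant column 1 fell inside the wild-type range (log2 fold change 0.32, adjusted p = 0.270; 0.51 with the Y-linked covariate). Fbl, the methyltransferase fibrillarin, had only 2.04, 2.14 and 1.69 FPKM in mutant libraries, against 1.002, 1.67 and 1.52 FPKM in wild-type libraries (adjusted p = 0.297). Fbl was thus the lowest of the 54 genes (mean 1.68 FPKM), far below Nop58 (79.0) and Nop56 (67.2) with which it forms 1 particle. Of the 50-base stretches of Fbl transcripts 19.0% also occur in transcripts of other genes, whose part in the level was not tested. Nolc1, a chaperone of both snoRNP classes, overlapped between groups (log2 fold change 0.11, adjusted p = 0.744).

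Among 18 genes of small-subunit assembly 3 rose and 15 did not pass (median log2 fold change 0.26). Utp20, a large scaffold protein of early precursors, had the highest log2 fold change of the list, 0.65 (SE 0.0951, adjusted p = 0.0233). It lies on chromosome 10 (88746607 to 88826804, mm10), and had 13.9, 13.2 and 14.9 FPKM in mutant libraries, against 7.51, 9.30 and 8.79 FPKM in wild-type libraries. The lowest mutant library thus lay well above the highest wild-type one. With 1 library left out the log2 fold change was 0.58 to 0.71 and the adjusted p 0.0498 to 0.0905.

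Wdr75, a subunit of the complex that couples transcription of the precursor to its processing, had 24.6, 24.0 and 24.7 FPKM in mutant libraries, against 16.7, 18.4 and 19.9 FPKM in wild-type libraries (log2 fold change 0.40, SE 0.0774, adjusted p = 0.0439; chromosome 1, 45795166 to 45823619). Rrp9, a protein of the U3 snoRNP that guides the first cuts, had 18.9, 18.7 and 21.4 FPKM in mutant libraries, against 15.1, 14.5 and 15.1 FPKM in wild-type libraries (log2 fold change 0.37, SE 0.0736, adjusted p = 0.0448; chromosome 9, 106475963 to 106485424). The groups overlapped in neither gene, and both calls lay just inside the threshold. Neither passed when any 1 library was left out (adjusted p from 0.0791 to 0.135 for Wdr75 and from 0.0639 to 0.143 for Rrp9) or after quantile normalization.

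Emg1, a methyltransferase of the small-subunit RNA, had 53.9, 58.6 and 66.1 FPKM in mutant libraries, against 49.4, 41.6 and 44.6 FPKM in wild-type libraries (log2 fold change 0.39, adjusted p = 0.0939; 0.078 with the Y-linked covariate). Wdr43, a partner of Wdr75, had 40.4, 42.3 and 38.2 FPKM in mutant libraries, against 30.5, 34.9 and 34.8 FPKM in wild-type libraries (log2 fold change 0.27, adjusted p = 0.121). In both the groups did not overlap, but neither passed. The other 13 genes of this route included the scaffold Heatr1, the acetyltransferase Nat10, the GTPase Bms1 and the nuclease Nob1. Of these 13 genes 10 were above 0, against 49.4% of all genes tested. In 3 of them every mutant library lay above every wild-type one, against 16.3% of all genes tested. Their log2 fold changes ran from -0.05 to 0.49 (adjusted p from 0.180 to 0.901). Nob1, at the upper end, had 15.4, 12.7 and 16.5 FPKM in mutant libraries, against 5.64, 16.7 and 11.0 FPKM in wild-type libraries. Its wild-type libraries thus spanned the whole mutant range.

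Among 17 genes of large-subunit assembly 3 rose and 14 did not pass (median log2 fold change 0.26). Rpf1, a Brix-domain protein of nucleolar precursors, had the smallest standard error of the 8 genes that rose. It had 26.9, 27.5 and 26.8 FPKM in mutant libraries, against 19.6, 19.7 and 19.2 FPKM in wild-type libraries, so that both groups were tight and far apart. The means were 27.1 ± 0.376 FPKM in mutant and 19.5 ± 0.283 FPKM in wild-type libraries (log2 fold change 0.46, SE 0.0533, adjusted p = 0.0142; chromosome 3, 146505956 to 146521429). With 1 library left out the log2 fold change moved only between 0.44 and 0.46, and the adjusted p ranged from 0.0291 to 0.0739 and passed in 1 of 6 fits.

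Nop16, a nucleolar protein of early precursors, had 23.2, 24.1 and 27.0 FPKM in mutant libraries, against 17.5, 18.0 and 16.2 FPKM in wild-type libraries (log2 fold change 0.50, SE 0.0826, adjusted p = 0.0323; chromosome 13, 54584185 to 54590090). Wdr12, a subunit of the PeBoW complex that is needed for large-subunit RNA processing, had 7.78, 7.72 and 8.09 FPKM in mutant libraries, against 5.51, 5.57 and 6.11 FPKM in wild-type libraries (log2 fold change 0.40, SE 0.0676, adjusted p = 0.0338; chromosome 1, 60069785 to 60098645). The groups did not overlap in either gene. Wdr12 passed in none and Nop16 in 1 of the 6 fits with a library left out. The other PeBoW genes, Pes1 and Bop1, had higher levels (means over all libraries of 16.4 and 18.4 FPKM, against 6.80 for Wdr12) and smaller log2 fold changes of 0.26 and 0.13, neither of which passed (adjusted p = 0.140 and 0.312).

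A further group came close to the threshold. Nop2, a methyltransferase of large-subunit RNA, had 31.6, 27.6 and 28.9 FPKM in mutant libraries, against 19.2, 22.3 and 22.8 FPKM in wild-type libraries (log2 fold change 0.44, adjusted p = 0.0542; 0.68 with the Y-linked covariate). Ftsj3, also a methyltransferase, had 30.4, 30.6 and 30.8 FPKM in mutant libraries, against 22.3, 24.99 and 25.7 FPKM in wild-type libraries (log2 fold change 0.32, adjusted p = 0.0592). These genes passed in 5 and 4 of the 17 alternatives, and their groups did not overlap. Noc3l and Noc2l, partners in nuclear transport of precursors, were also separated. Noc3l had 10.7, 10.6 and 11.0 FPKM in mutant libraries, against 6.55, 8.20 and 8.75 FPKM in wild-type libraries (adjusted p = 0.0818). Noc2l had 48.3, 46.4 and 44.3 FPKM in mutant libraries, against 38.6, 40.6 and 38.5 FPKM in wild-type libraries (log2 fold change 0.23, adjusted p = 0.0924; 0.37 with the Y-linked covariate). The remaining 10 genes of this route, including the GTPases Gnl2 and Gnl3 and the factor Mrto4, had log2 fold changes from 0.03 to 0.27 (adjusted p from 0.135 to 0.901). In 5 of these 10 every mutant library lay above every wild-type one, against 16.3% of all genes tested.

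None of the 4 organisers of the nucleolus passed in limma, also at an unadjusted p under 0.05 (0 higher, 0 lower; median log2 fold change 0.15), and in all 4 the groups overlapped. Ncl, nucleolin, had 59.6, 56.4 and 60.0 FPKM in mutant libraries, against 41.0, 66.4 and 58.3 FPKM in wild-type libraries (log2 fold change 0.11, SE 0.179, adjusted p = 0.738). Wild-type column 0 was its lowest and wild-type column 1 its highest library, and without wild-type column 0 the log2 fold change was -0.084, and with the Y-linked covariate 0.18. Npm1, nucleophosmin, had 145, 189 and 176 FPKM in mutant libraries, against 161, 157 and 170.1 FPKM in wild-type libraries (log2 fold change 0.06, SE 0.114, adjusted p = 0.803; -0.48 with the Y-linked covariate). The helicase Ddx21 and the polymerase I-associated protein Mybbp1a gave log2 fold changes of 0.18 and 0.23 (adjusted p = 0.638 and 0.347), with wild-type column 0 lowest in both.

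**Figure D4:**
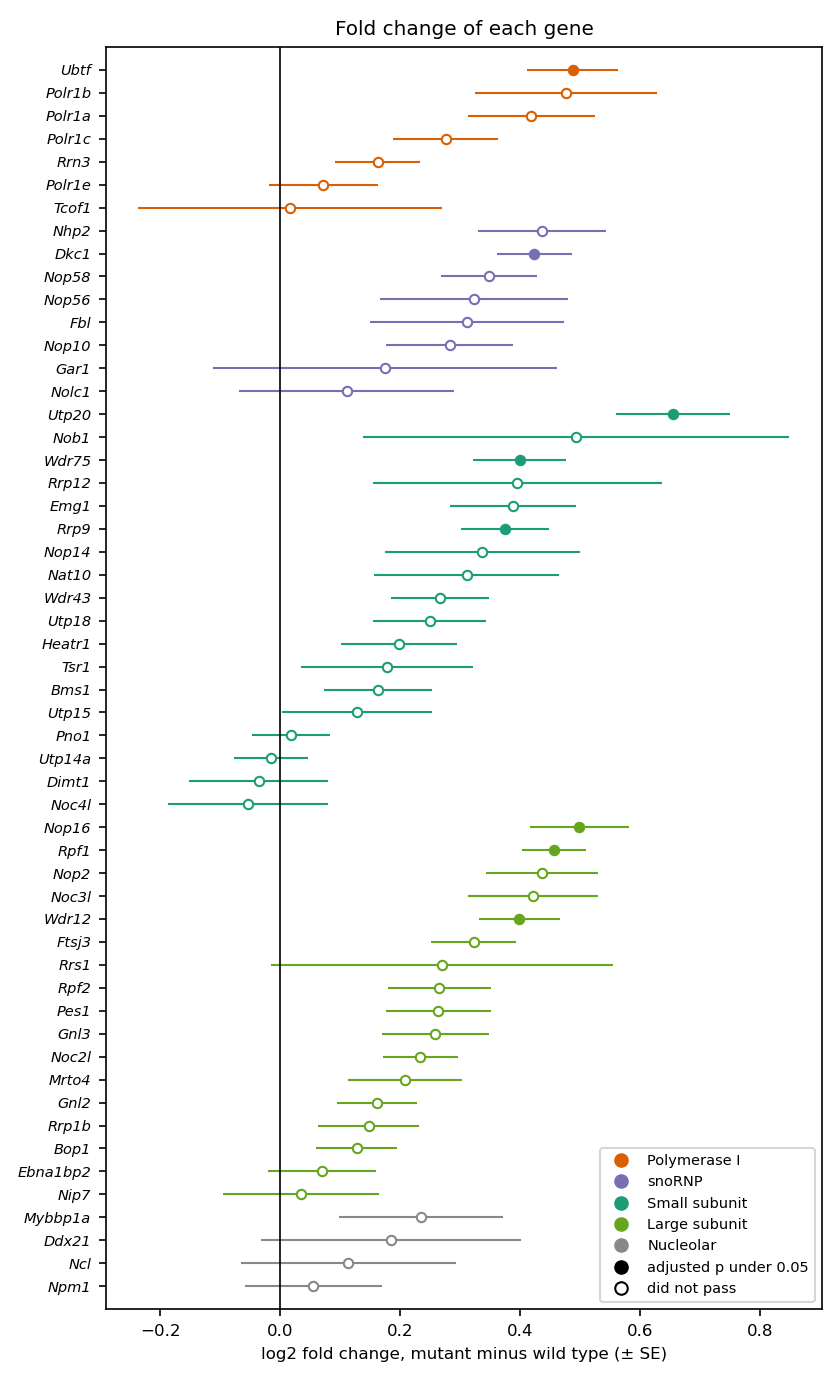
Difference of mean log2(FPKM + 1) between mutant and wild-type libraries with its standard error for each of the 54 genes, coloured by role. Filled points passed (adjusted p under 0.05) and open points did not; 51 points lie right of 0, from 0.65 for Utp20, and 3 small-subunit genes lie left of it.

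By level, per length of gene model, the 54 genes spanned 1.68 to 166 FPKM on average over the 6 libraries, and 41 had at least 10 FPKM. Npm1 stood highest (166 FPKM), followed by Nop58 (79.0), Nop56 (67.2), Nop10 (59.8), Gnl3 (59.6), Ncl (57.0), Emg1 (52.4) and Ubtf (46.2). Npm1 was above the next gene in every library, while Nop56, Nop10, Gnl3 and Ncl overlapped over the libraries. Dimt1 (2.50 FPKM) and Fbl were the lowest. The genes lie on 19 chromosomes. The bodies of 7 of them (Nop56, Nop58, Dkc1, Wdr43, Tsr1, Gnl3 and Ncl) hold 21 snoRNA genes in all on the same strand, per GENCODE M21. At least 10% of the 50-base stretches of the transcripts of Nop56, Fbl, Dimt1, Pes1, Mrto4 and Npm1 recur in transcripts of other genes, and at most 5.81% in any gene that rose, so with 50-base reads the values of those 6 are less certain. The bodies of 22 genes, Dkc1, Rrp9 and Wdr12 among them, overlap another gene on the opposite strand, and the sources used here do not say whether reads were counted by strand.

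Other genes of the pathway, not on the list, were examined to see whether the same pattern held more widely. Of 103 tested genes 4 rose (3.88%, near the 3.48% of all genes tested), none fell and 99 did not pass, and the median log2 fold change was 0.14, with 79 above and 24 below 0. At an unadjusted p under 0.05, 25 were higher and 2 lower, against 12.7% of all genes tested higher and 12% lower. In 37 (35.9%) every mutant library lay above every wild-type one, against 16.3% of all genes tested. Wild-type column 0 was the lowest library for 43 of the 103 genes (41.7%), against 21.2% of all genes tested. Without that library their median log2 fold change was 0.11, with 76 above 0. By role, 0 of 9 polymerase I genes, 1 of 34 small-subunit, 3 of 38 large-subunit, 0 of 10 snoRNP assembly and 0 of 12 nuclear exosome genes rose, with medians of 0.19, 0.12, 0.16, 0.13 and 0.04. Npm3, a nucleolar relative of nucleophosmin, had 16.1, 14.2 and 14.7 FPKM in mutant libraries, against 10.4, 9.15 and 8.93 FPKM in wild-type libraries (log2 fold change 0.61, SE 0.0836, adjusted p = 0.0209). Rrp15, a large-subunit factor, had 38.5, 37.2 and 35.7 FPKM in mutant libraries, against 27.5, 28.7 and 27.8 FPKM in wild-type libraries (log2 fold change 0.39, adjusted p = 0.0255).

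The remaining pair that rose were Rrp7a, a small-subunit factor, and Lsg1, a cytoplasmic GTPase of late large-subunit maturation. Rrp7a had 9.09, 9.31 and 10.2 FPKM in mutant libraries, against 6.93, 6.53 and 6.80 FPKM in wild-type libraries (adjusted p = 0.0282). Lsg1 had 14.8, 14.8 and 15.8 FPKM in mutant libraries, against 10.6, 11.1 and 12.3 FPKM in wild-type libraries (adjusted p = 0.0457). In all 4 genes the groups did not overlap. Of the 103 genes, 3 rose without mutant column 0, 1 without wild-type column 0 (Npm3, log2 fold change 0.67, adjusted p = 0.0466) and 0 without any other library. Next in p was Rsl24d1, a late large-subunit factor, at 10.8 ± 0.929 FPKM in mutant and 8.03 ± 0.265 FPKM in wild-type libraries (adjusted p = 0.0514). The most abundant were Rsl1d1, a nucleolar protein (89.5 ± 4.02 FPKM in mutant and 73.8 ± 2.53 in wild-type libraries, adjusted p = 0.0732), Ltv1, a small-subunit export factor (77.2 ± 4.20 and 70.3 ± 0.579 FPKM in mutant and wild-type libraries, adjusted p = 0.280), and Eif6, which keeps the subunits apart (55.6 ± 5.18 and 51.6 ± 5.72 FPKM in mutant and wild-type libraries, adjusted p = 0.583).

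The other nuclear polymerases and the Myc network showed no call in limma. None of 13 polymerase III genes passed (median log2 fold change 0.13, at an unadjusted p under 0.05, 1 higher and 2 lower). Brf1, an initiation factor, had 11.2 ± 1.12 FPKM in mutant and 9.09 ± 0.231 FPKM in wild-type libraries (adjusted p = 0.123), and the subunit Polr3k 13.1 ± 0.476 FPKM in mutant and 15.9 ± 0.842 FPKM in wild-type libraries (adjusted p = 0.0780). None of 12 polymerase II subunits passed (median 0.06, at an unadjusted p under 0.05, 1 higher and 0 lower). Of these, Polr2e, Polr2f, Polr2h, Polr2k and Polr2l also belong to polymerase I, so this list is in part polymerase I itself. Polr2f, shared by all 3 polymerases, had 73.5 ± 7.73 FPKM in mutant and 60.4 ± 2.32 FPKM in wild-type libraries (adjusted p = 0.145), and Polr2j 59.3 ± 5.15 FPKM in mutant and 49.0 ± 6.05 FPKM in wild-type libraries (adjusted p = 0.213). None of 9 tested genes of the Myc network, which regulates ribosome biogenesis genes in many cells, passed (median 0.06, at an unadjusted p under 0.05, 0 higher and 1 lower). That one, the repressor Mnt, had 1.65 ± 0.147 FPKM in mutant and 2.35 ± 0.309 FPKM in wild-type libraries (adjusted p = 0.168), and Mxi1, also a Myc antagonist, 4.97 ± 1.24 FPKM in mutant and 7.06 ± 2.28 FPKM in wild-type libraries (adjusted p = 0.396). Myc itself, named after its values were seen, had 37.0, 18.9 and 21.003 FPKM in mutant libraries, against 14.2, 27.4 and 18.52 FPKM in wild-type libraries, with overlap (log2 fold change 0.33, SE 0.328, adjusted p = 0.574). The antagonists Mxd1, Mxd3 and Mxd4 were at -0.07, 0.18 and 0.10 (adjusted p = 0.817, 0.755 and 0.613). The difference between the 54 genes and these lists was not tested.

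**Figure D5:**
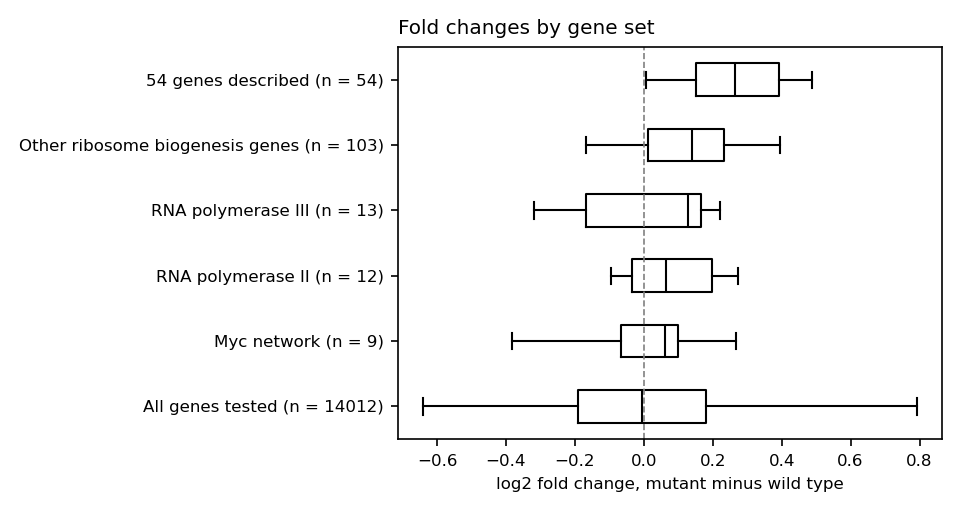
Difference of mean log2(FPKM + 1) between mutant and wild-type libraries in the 54 genes, other ribosome biogenesis genes, 3 compared lists and all genes tested. Boxes span the quartiles with the median as a line, whiskers mark the outer percentiles that leave 5% of genes beyond each end, and medians are 0.26 for the 54 genes, 0.14 for other ribosome biogenesis genes and -0.0039 for all genes tested.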

How the data were processed

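RNA of 6 libraries was measured by sequencing. Per the labels' protocols, libraries were stranded, depleted of ribosomal RNA and read as 50-base single ends. STAR, Cufflinks, Cuffdiff and build mm10 are named, per the submitters' processing notes, with tool versions not given in the sources used here. All deposited values are FPKM made by the authors, in 1 table of 27734 genes; read counts were not used here, so depth and counting intervals are unknown. Column totals were 571180 to 631534 FPKM. Library columns are numbered 0, 1 and 2 per the file headers and the labels 0, 1 and 3, so column 2 of each group was assigned to its group only. Separate embryos or litters are not named in the labels, so the p-values reflect library-to-library spread only, which may be technical.

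The 14012 genes averaging 1 FPKM or more, all 54 described here among them, were tested on log2(FPKM + 1) by limma 3.58.1 under R 4.3.3 (two-sided, genotype only, lmFit and then eBayes with trend), and p-values were adjusted by Benjamini-Hochberg over all genes tested; on this scale changes of low genes are understated. No exact permutation p is printed, as 0.1 is the smallest that 3 libraries a group allow. The script was tested on simulated data. Members and lists were chosen with earlier results of these data known. Values in every library are given for Cops5, for members that passed, for 10 members named for their role, and for those with the next smallest p up to 25 members. Nob1, Myc, Mxd1, Mxd3, Mxd4 and the marker genes given singly were added after their values were seen. The 5 other ribosome biogenesis genes with the smallest p, the 3 with the highest mean and 2 genes of each compared list are also named. Coordinates and gene types are from GENCODE M21 (27578 identifiers matched, 99.4%), promoters from RefSeq. The 16 fixed alternatives changed the pseudocount, filter, scaling, variance prior, weights, covariates or libraries used; 1 more, protein-coding genes only, was added after seeing the data.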

Additional observations from a re-analysis of the deposited data

How the results depend on the processing

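Of all genes tested 850 changed, 8 of the 54 genes and 4 of the other ribosome biogenesis genes rose, and none of either list fell in any setting. In that order, the counts were 461, 4 and 2 without the filter on low values, 1488, 13 and 12 with library weights, 236, 0 and 0 with the Y-linked covariate, and 1373, 15 and 13 with protein-coding genes only, where fewer genes were tested. Other ribosome biogenesis genes that rose numbered 7 at a pseudocount of 0.1 and 9 at a minimum mean of 5 FPKM. Leaving out 1 library gave 174 to 666 changed genes, 0 to 4 of the 54 and 0 to 3 of the others rising, and a median log2 fold change of the 54 genes of 0.18 to 0.31. With the replicate number as a block the counts were 60, 0 and 0. Same-numbered libraries did not deviate together (correlations -0.03, -0.04 and -0.02 across genes, and no library correlated best with its own number), and column 2 carries no number of the labels, so the numbers were not taken to pair the libraries.

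Signs turned for genes that did not pass. Ncl was at -0.084 without wild-type column 0 (-0.084 to 0.26 with 1 library left out). Npm1 was at -0.013 after quantile normalization, -0.48 with the Y-linked covariate and -0.024 without mutant column 1 (-0.024 to 0.16 with 1 library left out). Tcof1 was at 1.37 with the Y-linked covariate, but at -0.19 with library weights, -0.27 without mutant column 0 and -0.06 without wild-type column 0 (-0.27 to 0.16 with 1 library left out). Ltv1 and Eif6 were at -0.072 and -0.25 with the Y-linked covariate. The cause was not tested. Of 424 refits of the 25 members given library by library, 334 kept direction and side of the threshold, 66 lost and 17 gained a call. Read depth is unknown, and genes near 1 FPKM, such as Fbl, are measured least precisely.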
